A study of Rattus norvegicus with 2 samples.

Results

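The fibroblasts described here are those of the rat common carotid artery with clear collagen and proteoglycan transcripts, little Pi16 or Postn, and Gfpt2 below a set limit. They are called marker-low fibroblasts below. They were chosen from measured values. A kept barcode had at least 2000 UMIs (unique molecular identifiers, counted transcript molecules) and at most 20% mitochondrial UMIs. A marker-low fibroblast had at least 1.5% of its UMIs from Col1a1, Col3a1, Dcn and Lum together, under 0.5% from Acta2, Tagln, Myl9, Myh11, Cnn1 and Cald1 together, Gfpt2 under 0.35%, and fewer than 2 UMIs each of Postn and Pi16. This gave 457 of 8977 barcodes, 80 from the control library and 377 from the case library.

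The case group was the right common carotid arteries of 2 male SD rats, taken 28 days after balloon injury with ligation of the external carotid, and the control group was the left, uninjured arteries of the same rats. Both labels give an age of 12 weeks. The control arteries thus came from animals that had been operated on. The arteries were digested with trypsin and collagenase, and each group gave 1 library on the 10x Genomics platform, in which the rats cannot be told apart. The labels do not tie the barcode suffixes to the groups, and the suffixes were assigned by the number of barcodes that the study's methods give for each group. With 1 library in a group there is no replicate check, no p-value is given, and the 95% intervals below are exact and cover counting error only.

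Adventitial fibroblasts build the outer coat of an artery from fibrillar collagens and the small proteoglycans, such as decorin and lumican, that space the fibrils. Pi16, a peptidase inhibitor, marks a broad reservoir-like state of adventitial fibroblasts, Postn (periostin) is a matricellular protein of remodelling tissue, and Gfpt2 is an enzyme of the hexosamine pathway that feeds hyaluronan synthesis. Cells below a limit for each of these are defined by exclusion, so that their makeup has to be read from other genes.

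The genes whose levels set the marker-low fibroblasts of the case library apart from those of the control library included Col8a1 and Angptl1, which were higher, and Apod and Myoc, which were lower. Their promoters are shown because they belong to these genes. Each is the 250 bases before the annotated start in RefSeq, build GRCr8, plus strand, while the deposited counts were made on Rnor_6.0 and no coordinate was carried between the builds. Capitals mark matches, on either strand, to the TATA box (TATAAA), the CAAT box (CCAAT) or the GC box (GGGCGG). The AP-1 motif (TGANTCA) was also searched on both strands, and these windows hold no match to it. The Col8a1 promoter lies at chr11:56246532-56246781 and holds 4 GC boxes, all on the minus strand. The Angptl1 promoter lies at chr13:71513097-71513346, the Apod promoter at chr11:82935970-82936219 and the Myoc promoter at chr13:77509713-77509962.
Col8a1: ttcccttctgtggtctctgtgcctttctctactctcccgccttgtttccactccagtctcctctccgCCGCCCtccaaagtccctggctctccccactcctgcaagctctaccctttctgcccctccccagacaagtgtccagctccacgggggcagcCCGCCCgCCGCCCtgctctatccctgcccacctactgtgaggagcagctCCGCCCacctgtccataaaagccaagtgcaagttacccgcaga
Angptl1: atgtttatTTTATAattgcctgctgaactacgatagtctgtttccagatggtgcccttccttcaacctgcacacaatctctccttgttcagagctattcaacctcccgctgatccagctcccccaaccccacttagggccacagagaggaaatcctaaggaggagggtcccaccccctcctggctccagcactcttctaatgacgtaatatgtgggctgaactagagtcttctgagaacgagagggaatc
Apod: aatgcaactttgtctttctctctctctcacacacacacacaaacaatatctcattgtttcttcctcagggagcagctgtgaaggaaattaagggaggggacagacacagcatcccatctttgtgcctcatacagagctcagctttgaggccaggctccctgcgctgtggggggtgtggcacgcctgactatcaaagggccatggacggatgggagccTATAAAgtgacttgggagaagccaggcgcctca
Myoc: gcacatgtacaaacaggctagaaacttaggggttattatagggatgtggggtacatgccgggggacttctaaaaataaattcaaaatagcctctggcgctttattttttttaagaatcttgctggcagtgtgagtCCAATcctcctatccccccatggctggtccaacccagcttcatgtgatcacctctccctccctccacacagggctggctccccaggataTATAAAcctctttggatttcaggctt
In Apod the TATA box begins 33 bases before the start and in Myoc it begins 26 bases before it. Of 33469 rat promoters of this length, 12.9% hold the TATA box, 34.0% the CAAT box, 30.5% the GC box and 6.34% the AP-1 motif, so that these matches are common and are given only as a description of the sequence.

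The libraries differed in depth, and 2 of the gates counted UMIs, so the depth is given before the shares. The control library held 3321 barcodes and 24968329 UMIs, and the case library held 5656 barcodes and 28232614 UMIs. The kept barcodes had a median of 11680 UMIs in control and 5345 in case, and the marker-low fibroblasts 9619.5 and 4542. Of the marker-low fibroblasts, 47.5% in control and 3.98% in case had 10000 or more UMIs. A deeper cell more readily shows a 2nd UMI of Pi16 or Postn and leaves the class.

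The case library had more marker-low fibroblasts in proportion. They were 80 of 1999 kept control barcodes (4.00%, 3.19 to 4.96) and 377 of 4659 kept case barcodes (8.09%, 7.33 to 8.91). Among the barcodes past the collagen and muscle gates they were 80 of 667 in control (12.0%, 9.63 to 14.7) and 377 of 1174 in case (32.1%, 29.5 to 34.9). When each barcode was thinned to 2000 UMIs before Pi16 and Postn were counted, the class grew to 213 and 555 barcodes and the shares of kept barcodes became 10.7% (9.34 to 12.1) and 11.9% (11 to 12.9), whose intervals overlap. Within the fibroblast gate the thinned shares were 31.9% (28.4 to 35.6) and 47.3% (44.4 to 50.2), still higher in case with intervals that do not overlap. Under the gates as given, the Pi16-positive fibroblasts filled 68.4% of the gate in control and 37.7% in case, and the Postn-positive ones 1.65% and 10.9%. With thinning these were 49.8% and 26.2% for the Pi16-positive and 0.30% and 7.16% for the Postn-positive fibroblasts.

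**Figure D1:**
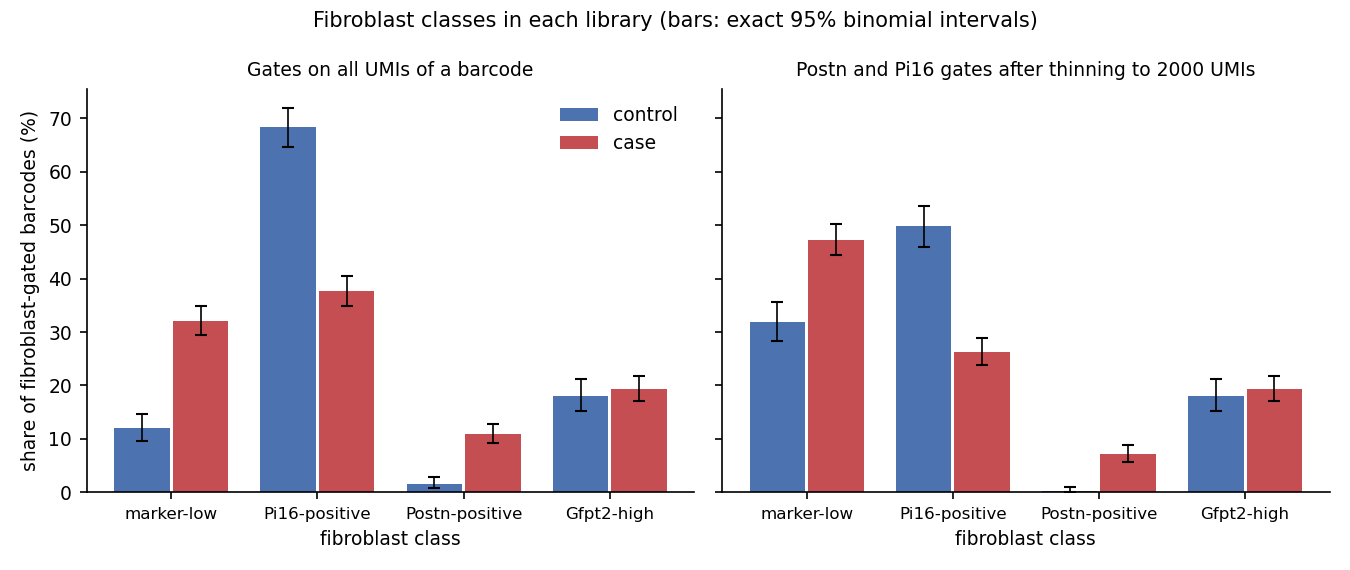
Shares of the fibroblast classes in the control and the case library, in percent of barcodes, with exact 95% intervals as bars that cover counting error only. The marker-low fibroblasts go from 12.0% of the fibroblast gate in control to 32.1% in case with the gates as given and from 31.9% to 47.3% with Pi16 and Postn counted after thinning to 2000 UMIs.

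Many cells lay close to a gate. Of the marker-low fibroblasts, 58 in control and 292 in case had 0 UMIs of Pi16 and 22 and 85 had 1, while 19 and 49 barcodes just outside had 2. For Postn, 5 and 39 marker-low fibroblasts had 1 UMI, and 0 and 17 barcodes outside had 2. For the collagen and proteoglycan sum, 13 and 100 lay between 1.5% and 2%, and 18 and 95 barcodes just outside lay between 1% and 1.5%. Few cells lay near the Gfpt2 gate (1 and 18 inside from 0.25%, 6 and 15 outside up to 0.45%) or near the muscle gate. Gfpt2 was not absent, as 48 of 80 control and 216 of 377 case cells had a UMI of it. Its median share of UMIs was 0.0160% and 0.0213%, against 0.534% and 0.585% in the Gfpt2-high fibroblasts.

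The label of fibroblast held on genes that the gates did not use. These were Pdgfra, a receptor of fibroblasts, Col6a1, Col6a2, Mfap5, Serpinf1 and Gsn. Together they took 14930 CPM (UMIs of the gene per 1000000 UMIs of the class) in control and 9775 CPM in case. Most of this was Gsn, at 11700 and 6962 CPM. In the smooth muscle class of the same libraries these genes together took 905.1 and 689.3 CPM. The 4 genes of the gate were at 11667 and 13403 CPM (Col1a1), 11837 and 15430 CPM (Col3a1), 13374 and 10257 CPM (Dcn) and 1963 and 1938 CPM (Lum), values that the gate selected. The smooth muscle genes of the gate took 991.7 and 919.8 CPM, against 28830 and 26450 CPM in the smooth muscle class.

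Markers of most other cell types were low. The endothelial list took 6.54 CPM in control, with 6 of its 9 genes at 0, and 23.4 CPM in case. The macrophage and leukocyte list took 19.6 and 38.9 CPM, the T cell list 0 and 1.07 CPM, the B cell list 3.93 and 0 CPM, the red blood cell list 20.9 and 27.2 CPM, the mesothelial list 3.93 and 5.32 CPM and the adipocyte list 0 and 8.52 CPM. The Schwann list took 68.0 and 95.3 CPM, most of it S100b, while its defining genes Sox10 and Cdh19 were at 0 in both libraries. The perineurial list took 70.7 and 67.1 CPM, most of it Slc2a1, the mural list 235.5 and 240.1 CPM, most of it Abcc9, and the chondrocyte list 66.7 and 52.7 CPM, most of it Sox9. The mural list took 344.4 and 379.7 CPM in the smooth muscle class and 274.9 and 295.8 CPM in the Pi16-positive cells. In those classes the chondrocyte list took 28.1 and 25.8 CPM and 26.6 and 15.1 CPM, below its level here. After thinning to 2000 UMIs, 2 of 80 control cells (2.50%) and 26 of 377 case cells (6.90%) had 3 or more UMIs of any of these lists. Scrublet called 12 control and 8 case barcodes doublets, none of them a marker-low fibroblast, 0.600% and 0.172% of the kept barcodes, so that doublets may remain. The libraries shared 21 barcode sequences. Of the marker-low fibroblasts, 3 carried one of these, and 1 sequence belonged to a marker-low fibroblast in both libraries.

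The case and control libraries were compared over 1337 genes, those whose level in the marker-low fibroblasts averaged 100 CPM or more over both libraries. Of these, 22 (1.65%) were higher in case by 2-fold or more and 54 (4.04%) were lower by 2-fold or more. The median log2 change was -0.16, and 485 genes lay above 0 and 852 below. Scaling by TMM, which sets the bulk of the genes to no change, adds 0.20 to each log2 change, and the counts then became 47 higher and 25 lower, so that small changes in direction rest on the scaling. The cells below 10000 UMIs gave 45 higher and 72 lower.

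**Figure D2:**
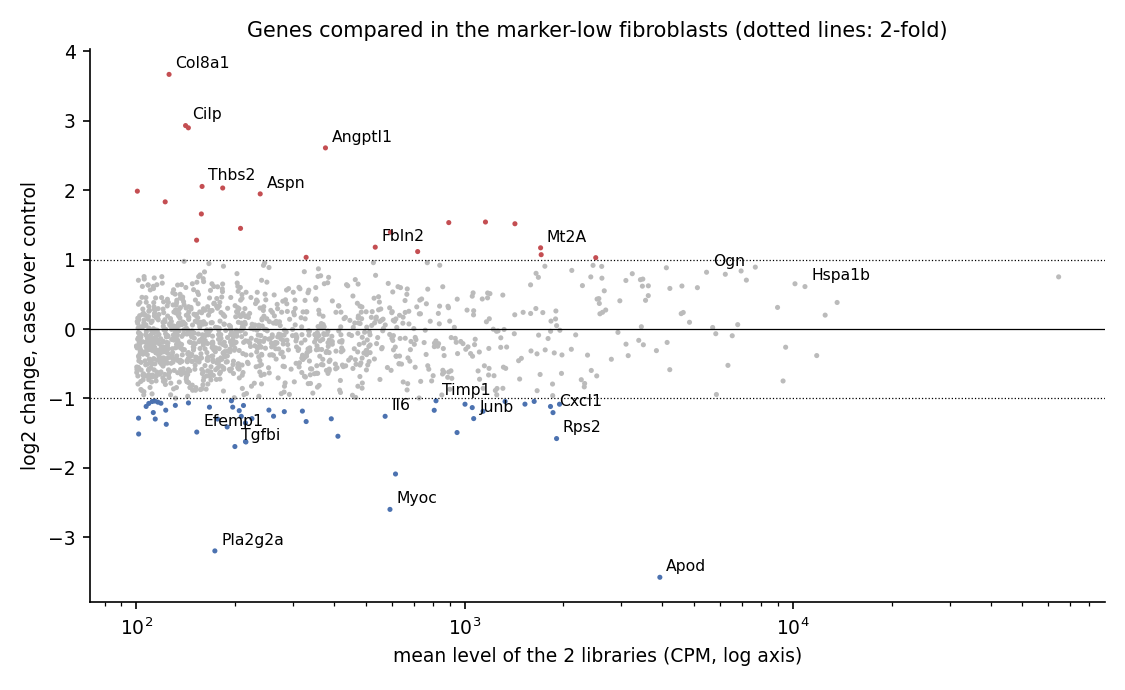
Each point is a gene compared, with its log2 change, case over control, in the marker-low fibroblasts (vertical axis) against its mean level in CPM on a log axis (horizontal axis). Col8a1, Cilp and Angptl1 stand at the top, between 2.61 and 3.67, and Apod stands alone among the abundant genes at -3.58.

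Col8a1, Cilp, Angptl1, Thbs2 and Aspn were among the genes highest in case. Col8a1, a short-chain collagen of vessel walls, had 14 UMIs in the control cells and 438 in the case cells. Its level was 18.3 CPM (10.0 to 30.7) in control and 233 CPM (212 to 256) in case, a log2 change of 3.67 (2.91 to 4.55). At 2000 UMIs per cell, 2.50% of control and 19.6% of case cells had a Col8a1 UMI (8.75% and 27.3% unthinned), beside 2.73% and 6.55% of smooth muscle cells thinned in the same way, whose median depths before thinning were 13295.5 and 5954 UMIs. At this matched depth the share was close to that of smooth muscle cells in control and above it in case. Cilp, a secreted matrix protein known from cartilage and from cardiac fibroblasts, went from 25 to 469 UMIs and from 32.7 to 249.7 CPM, so that its log2 change was 2.93 (2.35 to 3.57). In control 1 cell held 10 of the 25 Cilp UMIs, and without the top cell of each library the log2 change was 3.58 (2.84 to 4.43). It was found in 2.50% of control and 19.1% of case cells at 2000 UMIs (6.25% and 26.0% unthinned), beside 0% and 0.249% of smooth muscle cells.

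Angptl1, a secreted angiopoietin-like protein, had 81 UMIs in control and 1216 in case. Its level was 106 CPM (84.2 to 132) and 647 CPM (611 to 685), a log2 change of 2.61 (2.29 to 2.95). It was seen in 11.3% of control and 46.2% of case cells at 2000 UMIs (40.0% and 61.0% unthinned), beside 9.09% and 13.7% of smooth muscle cells. Thbs2, a thrombospondin that binds matrix proteases, went from 47 to 480 UMIs and from 61.5 to 255.5 CPM (log2 change 2.05, 1.62 to 2.52). Aspn, a small leucine-rich proteoglycan that binds collagen and TGF-beta, went from 75 to 711 UMIs and from 98.1 to 378.5 CPM (log2 change 1.95, 1.60 to 2.31). Fbln2, which links basement membrane and elastic fibres, was at 327 and 741 CPM, a log2 change of 1.18 (0.98 to 1.38), and it was below 2-fold, at 0.90, with 0 UMIs of Postn and of Pi16. Col8a1, Cilp, Angptl1, Thbs2 and Aspn stayed above 2-fold under each of 15 alternatives, with lowest log2 changes of 2.58, 1.86, 1.77, 1.42 and 1.43.

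Of the metallothioneins, which bind zinc and copper, Mt2A went from 1048 to 2359 CPM (log2 change 1.17, and 0.81 with Pi16 and Postn counted after thinning) and Mt1m from 40.6 to 161 CPM (1.99), while Mt1 was at a log2 change of -0.16. Some of the largest changes were in entries that moved alike in the classes set side by side here. AABR07057190.1, with no gene name, had a log2 change of 2.90 in the marker-low fibroblasts. It had 2.94, 2.93 and 2.70 in the Pi16-positive, the Gfpt2-high and the smooth muscle cells. Mt-atp8 had 1.66, 1.45, 1.47 and 1.52 in that order. AC134224.3, the entry with the most UMIs, took 48056 CPM in control and 80904 CPM in case, and its log2 change of 0.75 stood beside 0.79, 0.92 and 0.81 in those classes. RT1-CE10, Rps2 and LOC100362366 changed as uniformly.

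Apod was the abundant gene with the largest change downwards. Apolipoprotein D is a secreted lipid carrier of resting fibroblasts and of nerve sheaths, and it had 5546 UMIs in 80 control cells against 1141 in 377 case cells. Its level was 7256 CPM (7067 to 7450) in control and 607 CPM (573 to 644) in case, a log2 change of -3.58 (-3.67 to -3.49). Myoc (myocilin), a secreted glycoprotein of eye, nerve and connective tissue, went from 777 to 315 UMIs and from 1017 to 168 CPM (log2 change -2.60, -2.79 to -2.41). Pla2g2a, a secreted phospholipase, went from 239 to 64 UMIs and from 313 to 34.1 CPM, but 1 control cell held 68.2% of its UMIs. Without the top cell of each library it was at 100.6 and 26.8 CPM.

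The Apod and Myoc transcripts came from few cells. After thinning to 2000 UMIs, 11 of 80 control cells (13.8%, 7.07 to 23.3) and 13 of 377 case cells (3.45%, 1.85 to 5.82) had 5 or more Apod UMIs, while 67 and 359 cells had none and only 2 and 5 cells lay between. All of these Apod-high cells also had Myoc. Of all kept barcodes, 17 of 1999 in control (0.850%, 0.496 to 1.36) and 17 of 4659 in case (0.365%, 0.213 to 0.584) were Apod-high. These intervals overlap. With Pi16 and Postn counted after thinning, the class grew from 80 to 213 control and from 377 to 555 case barcodes. The Apod and Myoc falls were then smaller by value but still past 2-fold. What part the gates had in the difference in Apod-high share was not tested. Apod-high cells were also found among the Gfpt2-high fibroblasts, 4 of 120 in control (3.33%, 0.92 to 8.32) and 3 of 227 in case (1.32%, 0.27 to 3.81). Among the Pi16-positive cells they were 1 of 456 and 0 of 442, and among the smooth muscle cells 0 of 770 and 0 of 1207, with exact 95% upper bounds of 0.478% and 0.305%. With the Apod-high cells set aside, Apod, by which they were chosen, was at 3 UMIs in 69 control cells and 18 UMIs in 364 case cells, and Myoc at 1 and 98 UMIs. The Apod level was 47700 CPM in the 11 control cells and 22350 CPM in the 13 case cells of the sub-cluster that holds nearly all of them. The difference between the libraries was smaller by value without these cells for some other genes. Tgfbi, a TGF-beta-induced matrix protein, went from 305 to 94.2 CPM with them and from 114 to 74.7 CPM without them, and Efemp1, a fibulin of elastic tissue, from 225 to 80.4 CPM with them and from 89.5 to 71.5 CPM without them. By contrast Il6 was at 807 and 337.5 CPM with them and 950.5 and 345 CPM without them, and Bmp2 at 251 and 102 CPM and at 230 and 98.8 CPM.

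**Figure D3:**
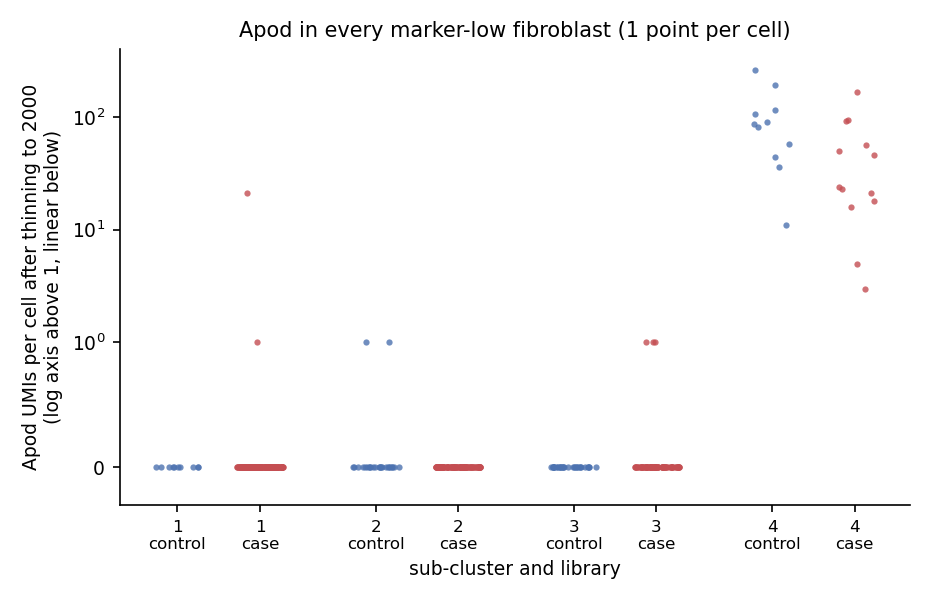
Apod UMIs of each marker-low fibroblast after thinning to 2000 UMIs (vertical axis, log above 1 and linear below), 1 point per cell, by library and by the sub-clusters described further on. The 11 control and 13 case cells with 5 or more Apod UMIs stand apart from the 67 and 359 cells with none, and all but 1 of them lie in sub-cluster 4.

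Il6 and Cxcl1 were lower in case by 2-fold, but not among the cells under 10000 UMIs. Of the 22 chemokines and cytokines listed, 6 reached 100 CPM, and 0 were higher and 2 lower by 2-fold, with a median log2 change of -0.85 and 6 of 6 below 0, beside 852 of all 1337 genes. Cxcl1, a neutrophil chemokine, had 1981 UMIs in control and 2112 in case, or 2592 and 1124 CPM, a log2 change of -1.21 (-1.29 to -1.12), with 1 control cell holding 23.6% of its UMIs. Il6, the pleiotropic cytokine, was at a log2 change of -1.26 (-1.42 to -1.10), and at 2000 UMIs 32.5% of control and 20.7% of case cells had an Il6 UMI (47.5% and 28.4% unthinned), beside 0.779% and 1.33% of smooth muscle cells. Ccl2, a monocyte chemokine, was at 2348 and 1355 CPM, a log2 change of -0.79. Of 8 antigen presentation and interferon genes compared, 0 were higher and 3 lower by 2-fold, with a median of -0.73, beside 4.04% lower and a median of -0.16 over all genes. B2m, the light chain of class I molecules, went from 5060 to 3371 CPM (-0.59), RT1-A2, a class I heavy chain, had -1.03 and Ifitm1, an interferon-induced membrane protein, -1.28. The changes of RT1-CE10 (-1.62 here) and RT1-A2 were alike in the Pi16-positive cells, at -1.56 and -0.95. Among cells under 10000 UMIs, Il6 was at -0.28, Cxcl1 at -0.73 and RT1-A2 at -0.63, none of them past 2-fold, and Ifitm1 was at -0.16 with Pi16 and Postn counted after thinning. RT1 class I genes are a family of near copies, and reads may have been split between them.

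The matrix lists held members that moved in both directions. Their counts are read beside all 1337 genes compared, of which 1.65% were higher and 4.04% lower by 2-fold (median -0.16). Of 8 collagens outside the gate, Col8a1 was higher and none was lower by 2-fold, and the median log2 change was -0.26. Col15a1, a basement membrane collagen, was at -0.82. Col4a1 was at -0.66, but at 0.14 among cells under 10000 UMIs. Of 6 small proteoglycans and versican, Aspn was higher and none lower, with a median of 0.38, and Ogn (osteoglycin) went from 3949 to 6963 CPM (0.82). Of 10 elastic fibre genes, Fbln2 was higher and Efemp1 lower, with a median of 0.05, and Eln, the elastin gene, was at -0.32. Efemp1 was past 2-fold under 13 of 15 alternatives (smallest fall -0.26). Of 11 matrix proteases and inhibitors, Timp1, the inhibitor of metalloproteinases, was lower (1099 to 537 CPM, -1.03, past 2-fold under 7 of 15 alternatives), and the median was -0.15. None of 6 collagen folding genes passed 2-fold (median -0.08). Among 11 genes of activated fibroblasts, Thbs2 was higher, Tgfbi and Tpm2 were lower, and the median was -0.03, with Ccn2, a matricellular protein induced by TGF-beta, at 0.74. Tgfbi was past 2-fold under 12 of 15 alternatives (smallest fall -0.61) and Tpm2 under 11 of 15 (-0.78).

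For lists tied to other fibroblast states, the medians are read beside the -0.16 of all genes, of which 4.04% were lower by 2-fold. Of 9 genes associated with Pi16, Procr (-1.35) and Clec3b (-1.26) were lower and none higher, with a median of -0.42, although Procr was at -0.63 with Pi16 and Postn counted after thinning, and Pi16 itself was held down by the gate. Of 6 genes associated with Col15a1, only Apod, found in few cells, was lower, with a median of -0.45, and Smoc2, a matricellular protein, was at 0.83, or at 1.08 (0.81 to 1.35) without the top cell of each library. Of 9 genes associated with Gfpt2 and hyaluronan none passed 2-fold (median -0.16).

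Signalling lists were mixed, and they are read beside 1.65% higher and 4.04% lower by 2-fold and a median of -0.16 over all 1337 genes. Of 14 TGF-beta and BMP genes Bmp2, a bone morphogenetic protein, was lower (251 to 102 CPM, -1.30, but -0.14 with Pi16 and Postn counted after thinning) and the median was -0.07. Of 6 IGF genes none passed, with a median of 0.06, and Igf1 was at 395 and 675.5 CPM (0.77) and Igfbp5 at 1253 and 2100.5 CPM (0.74). Of 7 growth factors and receptors Angptl1 was higher and Ntrk2, a neurotrophin receptor, was lower (-1.30), with a median of 0.04. Of 4 secreted Wnt modulators none passed, with a median of 0.21, with Sfrp4, a secreted Wnt inhibitor, at 0.95. In control 1 cell held 34.4% of the Sfrp4 UMIs, and without the top cell of each library Sfrp4 was past 2-fold, at 1.45 (1.12 to 1.80). Of 7 lipid handling genes Apod was lower, with a median of -0.64, and Apoe was at -0.99, or at -0.63 without the top cell of each library, 1 control cell holding 27.7% of its UMIs. None of 6 complement genes (median -0.15), 7 mesenchymal transcription regulators (0.10), 3 cell cycle genes (-0.11) or 6 glycolysis genes (-0.34) passed 2-fold.

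Stress and immediate early genes were abundant in both libraries. Counts for the lists below stand beside 1.65% higher and 4.04% lower by 2-fold over all genes (median -0.16). Hspa1b, an inducible heat shock protein, took 8608 CPM in control and 13150 CPM in case (0.61), and none of 15 heat shock genes passed 2-fold (median 0.00). Of 21 immediate early genes, Junb and Cebpd were lower and none was higher, with a median of 0.07. Cebpd was past 2-fold under 12 of 15 alternatives, the smallest fall being -0.57, and Egr1 was at 1806 and 3038 CPM (0.75). For Junb (-1.29), 1 control cell held 27.6% of the UMIs, and the change was -0.88 without the top cell of each library. Of 7 glucocorticoid-responsive genes Cebpd was lower, and the median was -0.27. Of 15 antioxidant genes Mt2A was higher (median -0.16), and of 12 S100, annexin and galectin genes S100a10 (-1.08) and S100a11 (-1.10) were lower (median -0.22), each past 2-fold under 12 of 15 alternatives. Of 68 ribosomal protein entries 2 were higher and 15 lower with a median of -0.60, beside 1.65% higher, 4.04% lower and a median of -0.16 over all genes. Rps27a has 2 entries, 1 of the higher ones at 1.52 and the other at -0.86. The summed level of these genes went the other way from their median, from 123200 to 143100 CPM. The 12 mitochondrially encoded genes had 2 higher and a median of 0.23. What part digestion, depth or library preparation had in these changes was not tested, and a difference between the libraries and a difference between the arteries cannot be told apart.

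The same changes were set beside those of the other cell classes, which come from the same 2 libraries. Col8a1 had a log2 change of 3.67 in the marker-low fibroblasts, 1.13 in the Pi16-positive, 4.25 in the Gfpt2-high (where control was at 2.21 CPM) and 0.49 in the smooth muscle cells. Angptl1 had 2.61, 0.74, 1.83 and 0.59 in that order, Thbs2 2.05, 0.21, 2.34 and -0.01, and Aspn 1.95, 0.39, 0.46 and 0.12. The changes were thus smaller in the Pi16-positive and smooth muscle cells by value, and the differences were not tested. Il6 had -1.26, -0.42, -0.65 and 0.05, and Tgfbi -1.69, -0.35, -0.38 and -0.15. Mt2A, at 1.17, 0.80, 0.43 and 0.92, was above 0 in each of these classes.

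**Figure D4:**
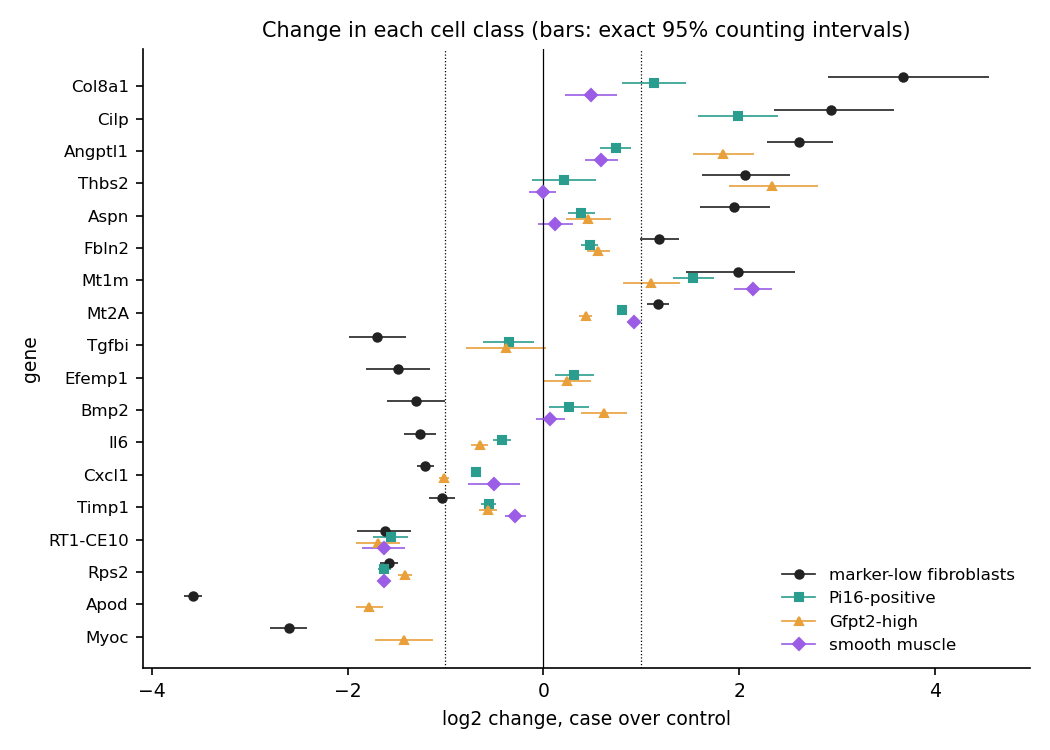
Log2 change, case over control, of named genes in the marker-low, Pi16-positive and Gfpt2-high fibroblasts and in the smooth muscle class, with exact 95% intervals for counting error and values below 10 CPM in either library left out. Col8a1 reaches 3.67 in the marker-low fibroblasts and 1.13 in the Pi16-positive ones, while RT1-CE10 lies near -1.6 in each class.

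Within each library the marker-low fibroblasts were also set beside the other fibroblast classes, whose gates use the same transcriptomes, so that these ratios are descriptions. Against the Pi16-positive cells, 5 of 1305 genes (0.383%) were higher by 2-fold in both libraries and 10 (0.766%) were lower. The higher ones were Apod (7256 against 41.5 CPM in control, 607 against 1.13 CPM in case), Myoc, Thbs4, a thrombospondin of tendon and vessel walls (log2 ratios 4.22 and 2.36), Itm2a (2.42 and 1.35) and Plagl1, an imprinted zinc finger gene (1.12 and 1.38). The lower ones included PCOLCE2, an enhancer of procollagen processing (-1.58 and -2.20), Smpd3 (-1.66 and -1.53), Igfbp5 (1253 against 3661 CPM in control, 2101 against 5939 CPM in case) and Thbd, thrombomodulin (-1.23 and -1.40). Of the genes higher than in the Pi16-positive cells, Apod, Myoc and Thbs4 lay in the few Apod-high cells for the most part in control.

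Against the Postn-positive cells, of which control had only 11, 6 of 1305 genes (0.46%) were higher in both libraries and 4 (0.307%) lower. Apod, Myoc, Il6 and Gpc3, a cell-surface proteoglycan, were among the higher, and Fndc1, Spp1 (osteopontin), Lrrn4cl and Igfbp5 were the lower. Against the Gfpt2-high cells, which were deeper still, 58 of 1351 genes (4.29%) were higher and 66 (4.89%) lower. The immediate early genes Fos (4.13 and 3.67), Fosb (3.27 and 3.17) and Egr1 (2.95 and 3.52) and the heat shock gene Hspa1b (2.58 and 2.80) were among the highest in the marker-low fibroblasts relative to the Gfpt2-high cells. None of these was among the genes 2-fold higher or lower than in the Pi16-positive cells in both libraries. Cd55, a complement regulator (-4.98 and -5.39), and Has2, a hyaluronan synthase (-3.89 and -3.55), were among the lowest.

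The marker-low fibroblasts were clustered by themselves without the genes of the gates, and 4 sub-clusters resulted, which are described by the genes that lead them and not tested. Sub-cluster 1 had 183 cells, 173 of them from the case library, so it may stand for that library. It was led by Pla2g2a (from 1 control cell for the most part), Cilp, Cxcl14, Angptl1, Col8a1 and Sfrp4. Sub-cluster 2 had 133 cells, 26 from control and 107 from case, and was led by Tfpi2, a protease inhibitor of the matrix, the amino acid transporter Slc7a1, the oxidoreductase gene Nqo1 and Chac1. Gfpt2 was at 1081 CPM in control and 1391 CPM in case there. It was at 290 and 270, 111 and 134.5, and 749 and 380.5 CPM in sub-clusters 1, 3 and 4. Over all marker-low fibroblasts, Nqo1 (log2 ratios -2.41 and -2.35) and Slc7a1 (-1.75 and -1.78) were lower than in the Gfpt2-high cells. Sub-cluster 3 had 117 cells, 33 and 84, and was led by Rasd1, Gdf10, Btg2, Fos and Hes1. Sub-cluster 4 had 24 cells, 11 and 13, and was led by Apod (40080 CPM against 11.3 CPM in the other marker-low fibroblasts), Myoc (6098 against 31.9 CPM), Ptn, a heparin-binding growth factor (963 against 10.1 CPM), Aldh1a1, a retinoic acid-forming enzyme, Vtn (vitronectin) and Thbs4 (1824 against 61.4 CPM). The number of sub-clusters was 3 at a resolution of 0.3 and 7 at 0.8.

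**Figure D5:**
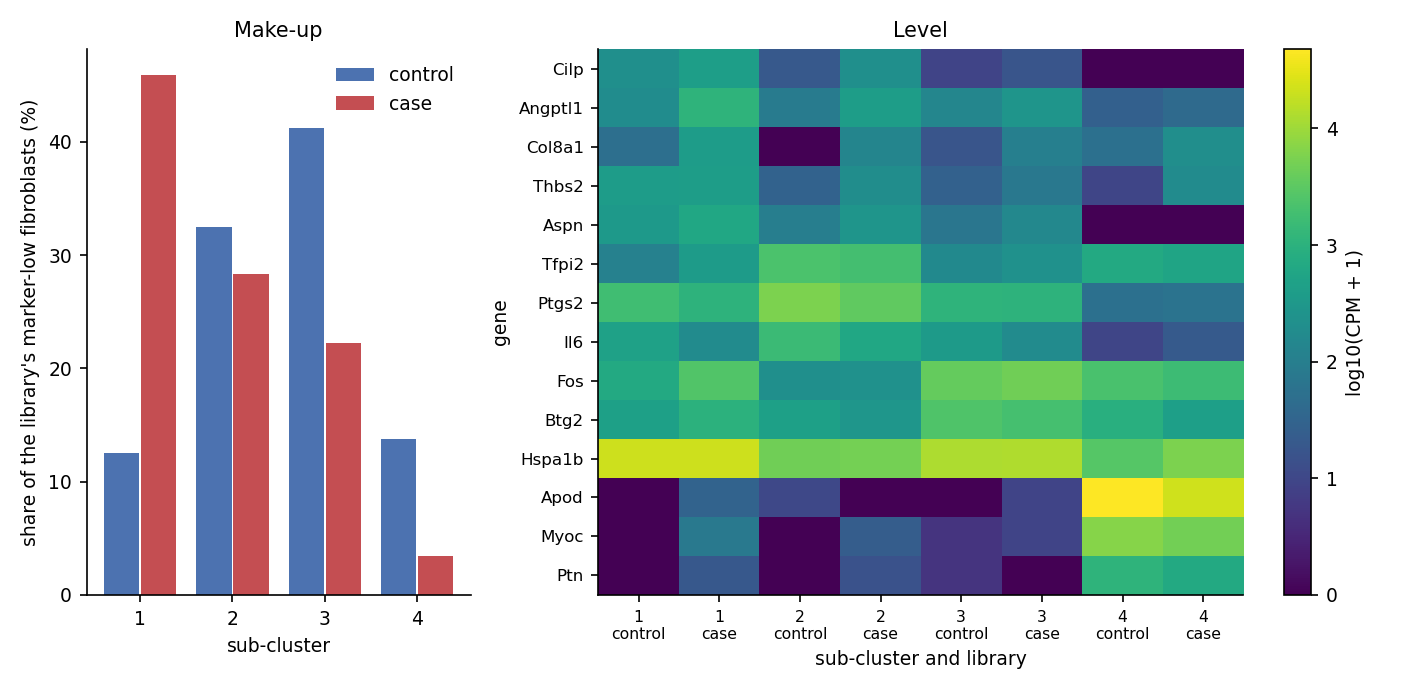
Left, the percent of each library's marker-low fibroblasts in each sub-cluster (bars). Right, the level of named genes in each sub-cluster and library as log10 of CPM + 1 (colour). Sub-cluster 1 holds 12.5% of the control and 45.9% of the case cells, and Apod, Myoc and Ptn are brightest in sub-cluster 4.

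Markers of other cell types were also read in sub-cluster 4. The fibroblast genes outside the gate took 13600 CPM there, most of it Gsn, beside 12740, 10950 and 9196 CPM in sub-clusters 1 to 3. The Schwann list took 24.1 CPM, with Sox10 and Cdh19 at 0. The endothelial list took 66.2 CPM, on 11 UMIs, beside 13.2, 25.4 and 1.61 CPM in sub-clusters 1 to 3. The perineurial list was higher than elsewhere, at 319 CPM beside 32.5, 76.3 and 35.3 CPM in sub-clusters 1 to 3. Its Slc2a1, a glucose transporter, was at 126.4 CPM (7 of 24 cells), Itgb4, an integrin chain, at 114 CPM (5 of 24 cells) and Cldn1, a tight junction protein, at 78.3 CPM (7 of 24 cells), while Perp, Lgals7 and Krt19 were at 0. In the other sub-clusters Itgb4 and Cldn1 were at most 4.81 and 9.63 CPM. Sox9, a transcription factor of cartilage and connective tissue progenitors, was at 282.9 CPM beside 48.1, 32.3 and 35.3 CPM, with Acan and Col2a1 at 0. The part of perineurial cells in the Apod and Myoc levels was not tested, and the sub-cluster is named here only by those genes.

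The changes between the libraries were looked up inside each sub-cluster. Col8a1 was at 50.5 CPM in control and 391 CPM in case in sub-cluster 1, at 15.9 and 105 CPM in sub-cluster 3 and at 51.6 and 200 CPM in sub-cluster 4, and in sub-cluster 2 it had 0 UMIs in 26 control cells against 95 UMIs in 107 case cells (134.7 CPM). Col8a1 was therefore higher in case by value in every sub-cluster, on 4, 0, 4 and 6 control UMIs. Angptl1 was at 189 and 1097 CPM in sub-cluster 1, at 88.2 and 405.5 CPM in sub-cluster 2 and at 139 and 277 CPM in sub-cluster 3, and had 3 and 2 UMIs in sub-cluster 4. Aspn was at 328 and 611 CPM, at 101 and 278 CPM and at 67.6 and 151 CPM in the first 3 sub-clusters and at 0 in sub-cluster 4. Thbs2 was at 379 and 404 CPM in sub-cluster 1, where the libraries were close, and at 28.4 and 198.5 CPM in sub-cluster 2. Cilp was at 214.5 and 419 CPM in sub-cluster 1 (0.97, 0.26 to 1.76) and at 18.9 and 209.9 CPM in sub-cluster 2 (3.47, 2.32 to 4.94), had 2 and 6 UMIs in sub-cluster 3 and was at 0 in sub-cluster 4. Most Cilp UMIs lay in sub-cluster 1, but its control level there rests on 17 UMIs in 2 of 10 cells, 10 of them in 1 cell. In sub-cluster 2, 1 control cell held 5 of 6 Cilp UMIs. These changes are therefore not compared with the change of Cilp over all marker-low fibroblasts.

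Igf1 had log2 changes of 0.52 (0.16 to 0.90), -0.23 (-0.55 to 0.10), 0.02 (-0.40 to 0.45) and -1.28 (-2.83 to -0.02) in sub-clusters 1 to 4, the last on 34 and 6 UMIs. Fbln2 had 0.64 (0.25 to 1.06), 1.13 (0.80 to 1.46), 0.08 (-0.44 to 0.61) and 0.39 (-0.35 to 1.10). For both genes the change within most sub-clusters was smaller by value than over all marker-low fibroblasts. The sub-clusters were made from both libraries together, and Igf1 ranked 7 among the genes leading sub-cluster 1. A smaller change within sub-clusters may therefore be built in, and its cause was not tested. In sub-cluster 1, where the top control cell for each gene held 44 of 55 Sfrp4 UMIs and 39 of 59 Smoc2 UMIs, the levels of Sfrp4 and Smoc2 in control rest mostly on single cells and are not compared. Sub-cluster 1 held 12.5% of the control and 45.9% of the case cells. Apod in sub-cluster 4 went from 47700 to 22350 CPM and Myoc from 6678 to 4746 CPM, on 11 and 13 cells.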

How the data were processed

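Arteries were profiled by droplet single-cell RNA sequencing, 1 library per group. UMI counts per gene and barcode were deposited by the authors after Cell Ranger 3.1.0 (file header) with build Rnor_6.0 (submitters' processing notes, which also name Seurat). They were used as deposited, not filtered or integrated. Counts were summed over the cells of a class and library and given as CPM, and exact Poisson or Clopper-Pearson 95% intervals were set. Members and the 27 gene lists and 14 marker lists were chosen with earlier results of these data known. Named genes were those of the gates, the 12 largest rises and falls, up to 5 genes a list, the 6 highest and lowest against each other class, the most abundant and the 5 leading genes of each sub-cluster. Doublets were left in (Scrublet within scanpy). Sub-clusters used 10000 UMIs per cell, log transformation, 2000 variable genes, 30 components, 20 neighbours and Leiden resolution 0.5. Alternatives changed gates, depth, scaling (edgeR 4.0.16 TMM) and expression minimum. Those for cells under 10000 UMIs and without Apod-high cells (5 or more UMIs after thinning) were chosen after seeing the data. The comparison step was tested on simulated data. Python 3.11.15, scanpy 1.11.5, scipy 1.17.1 and leidenalg 0.10.2 were used.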

Additional observations from a re-analysis of the deposited data

Results flagged for a closer look

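For 3 genes the change in the marker-low fibroblasts and the change in the Pi16-positive fibroblasts had opposite signs, each with a counting interval clear of 0. Thbs4 had a log2 change of -1.18 in the marker-low fibroblasts and 0.68 (0.19 to 1.17) in the Pi16-positive ones. Without the Apod-high cells it had 0 UMIs in 69 control cells and 149 UMIs in 364 case cells. Bmp2 had -1.30 and 0.26 (0.06 to 0.46). Efemp1 had -1.49 and 0.31 (0.12 to 0.51), and was at 89.5 and 71.5 CPM without the Apod-high cells. With Pi16 and Postn counted after thinning, the marker-low changes were 0.0013 for Thbs4, -0.14 for Bmp2 and -0.26 for Efemp1, none of them past 2-fold. With 1 library per group the difference between the classes was not tested.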

How the results depend on the processing

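The share of marker-low fibroblasts was 2.05% in control and 3.74% in case with the collagen sum at 3% or more, 10.7% and 11.9% with Pi16 and Postn counted after thinning, and 2.75% and 5.60% with 0 UMIs of each. It was 5.59% and 8.35% among barcodes under 10000 UMIs and 3.25% and 6.50% with Gfpt2 under 0.1%. Genes higher in case by 2-fold (22) numbered 45 under 10000 UMIs, 36 with cells thinned, 47 with TMM scaling, 38 at a minimum of 50 CPM and 13 at 200 CPM. Genes lower in case (54) numbered 25 with TMM scaling, 103 at 50 CPM and 32 at 200 CPM. The median log2 change turned from -0.16 to 0.049 with TMM scaling. Apod and Myoc turned to log2 changes of 1.09 and 5.12 without the Apod-high cells, on 3 and 1 control UMIs, and Thbs4 to 0.0013 with Pi16 and Postn counted after thinning. The lowest fall of Efemp1 was -0.26, of Bmp2 -0.14 and of Il6 -0.28. Of 43 named genes past 2-fold, 32 stayed past it with Pi16 and Postn counted after thinning, 32 under 10000 UMIs and 37 with TMM scaling. Each group holds 1 library, so no library could be left out, and the depth of 14 to 81 control UMIs limits the size of the largest rises. No paired analysis was possible because each group has 1 library. The causes were not tested.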
